A study of Homo sapiens with 12 samples.

Results

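The regions described here are 5 zinc finger gene clusters of chromosome 19, defined by position on the hg19 build as 20 to 24.4 Mb (cluster 1), 36.6 to 38.4 Mb (cluster 2), 44.3 to 45.0 Mb (cluster 3), 52.3 to 54.2 Mb (cluster 4) and 56.0 to 59.1 Mb (cluster 5), leaving out the imprinted PEG3 interval at 57348000 to 57354000 with its 15 listed sites. They held 6028 CCGG sites of 1019951 listed in at least 1 library of the series, and the rest of chromosome 19 held 54542. Cluster 1 had 1343 of these sites, cluster 2 had 929, cluster 3 had 196, cluster 4 had 1074 and cluster 5 had 2486. The clusters were poor in CCGG, with 507 listed sites per Mb together and 280.0 to 802 in the single clusters, against 1155 per Mb in the rest of the chromosome. Cytosine methylation was profiled by HELP-tagging in 2 lines of clear cell renal cell carcinoma, the cancer of the kidney's tubule epithelium, which the labels call 786 and 769. Each line gave 2 DNA samples labelled AA, for ascorbic acid, and 1 labelled control, and each of the 6 DNA samples was digested with HpaII and with MspI, which makes 12 libraries. The labels give neither a dose nor a duration of AA, and nothing says that the AA samples of a line came from separate cultures, so the spread between them may be technical.

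C2H2 zinc finger genes make up the largest family of human transcription factor genes, and many of those that carry a KRAB domain sit side by side on human chromosome 19, where the family grew by repeated duplication. KRAB zinc finger proteins bind DNA through arrays of fingers, many of them in transposable elements, and recruit the corepressor TRIM28, which brings histone H3 lysine 9 methylation and DNA methylation. In many human cells the bodies of these genes carry that histone mark while their CpG-rich starts stay free of DNA methylation. Among protein-coding genes named ZNF with a number in RefSeq, 240 of 477 (50.3%) lay on chromosome 19. HpaII cuts CCGG only where the inner cytosine is neither methylated nor hydroxymethylated, and MspI cuts in either state. The measure used below, the HpaII/MspI ratio, is the share of a library's HpaII tags that fell on a region divided by the share of MspI tags of the same DNA there. A ratio of 1 is the mean over chromosomes 1 to 22 and X, a high ratio marks unmodified CCGG, and a ratio near 0 marks sites that HpaII left uncut.

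The start regions of 4 genes show what the assay read in these clusters: those of ZNF787, a zinc finger gene of cluster 5, and ZNF160, a KRAB zinc finger gene of cluster 4, had high ratios in every DNA sample, that of ZSCAN18, a SCAN-domain zinc finger gene of cluster 5, had, among the placed starts with at least 10 MspI tags in each library, a mean of 0.988 in 786 and the highest mean, 12.6, in 769, and that of LOC107985342, an uncharacterised long non-coding RNA gene of cluster 4, gave no HpaII tag. The 250 bases before each start are from RefSeq (GRCh38.p14), in the direction of transcription, with CCGG in capitals. They were placed on hg19 by the spacing of their CCGG sites among the listed sites, and because the files do not state which base of CCGG a position names, an end may be off by up to 3 bases. ZNF787 lay at chr19:56632667-56632916 on the minus strand, ZNF160 at chr19:53606678-53606927 (minus), ZSCAN18 at chr19:58609601-58609850 (minus) and LOC107985342 at chr19:54151054-54151303 (plus). The printed stretches hold 6, 7, 5 and 3 CCGG sites in the order of the lines.
ZNF787: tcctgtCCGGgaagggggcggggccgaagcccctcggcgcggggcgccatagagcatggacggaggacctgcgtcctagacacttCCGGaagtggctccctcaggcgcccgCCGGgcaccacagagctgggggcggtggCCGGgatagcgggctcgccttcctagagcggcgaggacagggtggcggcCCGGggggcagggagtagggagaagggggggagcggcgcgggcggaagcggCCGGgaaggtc
ZNF160: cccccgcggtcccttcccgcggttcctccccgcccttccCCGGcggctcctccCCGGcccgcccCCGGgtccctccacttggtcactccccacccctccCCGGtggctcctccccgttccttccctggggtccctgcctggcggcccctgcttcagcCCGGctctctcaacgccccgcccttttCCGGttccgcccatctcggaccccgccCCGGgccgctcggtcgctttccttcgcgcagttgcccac
ZSCAN18: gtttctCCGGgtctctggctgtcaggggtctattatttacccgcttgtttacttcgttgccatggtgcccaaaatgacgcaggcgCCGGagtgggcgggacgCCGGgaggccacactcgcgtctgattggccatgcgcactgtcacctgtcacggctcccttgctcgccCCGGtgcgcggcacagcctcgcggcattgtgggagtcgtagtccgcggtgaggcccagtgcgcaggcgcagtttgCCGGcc
LOC107985342: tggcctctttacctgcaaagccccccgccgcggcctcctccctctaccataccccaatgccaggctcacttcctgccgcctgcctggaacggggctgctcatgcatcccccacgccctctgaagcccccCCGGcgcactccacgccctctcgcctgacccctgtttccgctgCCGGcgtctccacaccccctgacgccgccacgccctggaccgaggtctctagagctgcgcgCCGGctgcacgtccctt

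Depth set the precision throughout. The 12 libraries held 189704 to 12442031 tags, and the shallowest was HpaII of the 786 control, which left 566 tags in the clusters. The other HpaII libraries had 16371 to 41241 tags there, and the MspI libraries 16872 to 58807. Values of the 786 control therefore rest on few tags. The 769 control had 31014 HpaII tags in the clusters, but on 613 sites, against 1728 and 839 sites in the 769 AA samples. Some counts were fractional: 6.47% to 15.4% of the clusters' listed sites had a fractional count in a library, from tags with several alignments, against 3.43% to 5.71% in the rest of chromosome 19. The clusters took 0.403% to 0.415% of the MspI tags in 786 and 0.486% to 0.514% in 769 (n = 3 each; exact permutation test, two-sided p = 0.1, the smallest possible). Relative to the rest of chromosome 19 that line difference was -0.06 on the log2 scale (exact p = 0.4). The ratio divides by MspI of the same DNA, so an unequal number of DNA copies enters both terms.

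The clusters were cut by HpaII more than the rest of their chromosome. In 786 the ratio over all clusters was 1.03 and 1.11 in the AA samples and 0.853 in the control. In 769 it was 1.25 and 1.27 in the AA samples and 1.19 in the control. The rest of chromosome 19 had 0.771 and 0.819 in the 786 AA samples, 0.750 in the 786 control, 0.948 and 0.898 in the 769 AA samples and 0.921 in the 769 control. Every sample thus had a higher ratio in the clusters than in the rest, by 1.31-fold as a geometric mean (log2 difference 0.39 ± 0.11, SD, n = 6; higher in 6 of 6 samples; exact permutation test by sign flips, two-sided p = 0.0312, the smallest 6 samples allow, 0.0375 after Benjamini-Hochberg adjustment over the 6 sets of clusters tested). The samples come from 2 lines only. With the number of tagged sites as the measure the log2 difference was 0.07 (adjusted exact permutation p = 0.525), and against the rest of chromosomes 1 to 22 and X it was 0.15 (adjusted exact permutation p = 0.156). Outside the clusters chromosome 19 had ratios under 1 in every sample.

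**Figure D1:**
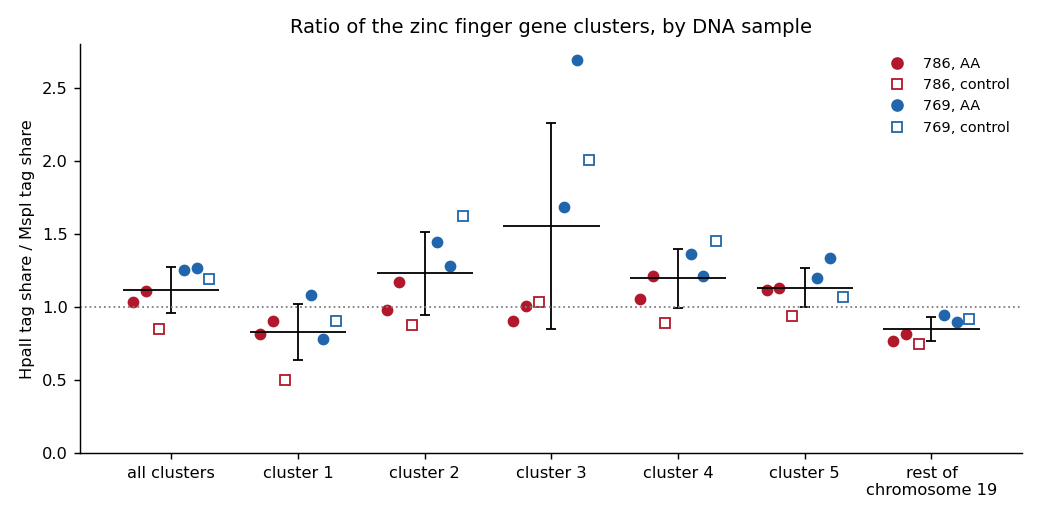
HpaII/MspI ratio (y axis, no unit) of all clusters, of each cluster and of the rest of chromosome 19 (x axis) in each DNA sample, filled circles for AA and open squares for control, 786 in red left of 769 in blue; lines and bars are the mean ± SD of the 6 samples and the dotted line marks 1. The mean over all clusters is 1.12, against 0.851 in the rest of the chromosome, and cluster 1 is at 0.832.

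The 5 clusters did not stand alike. Cluster 3 averaged a ratio of 1.56 ± 0.708, cluster 2 of 1.23 ± 0.282, cluster 4 of 1.20 ± 0.203 and cluster 5 of 1.13 ± 0.133, against 0.851 ± 0.0828 in the rest of chromosome 19 (SD, n = 6 each). Each of these 4 clusters was above the rest in 6 of 6 samples, by 1.69-, 1.42-, 1.40- and 1.33-fold in that order (adjusted exact permutation p = 0.0375 each). Cluster 3, the smallest, rested on 20 HpaII tags in the 786 control and on 376 to 1491 in the other libraries, and with whole-count sites alone its call was lost (log2 difference 0.47, adjusted exact permutation p = 0.263). With such sites alone cluster 4 was 0.18 above the rest on the log2 scale, in place of 0.48. The calls of clusters 2 to 5 also ended with tagged sites as the measure (log2 difference 0.05, 0.44, 0.12 and 0.16 in number order) and against the rest of chromosomes 1 to 22 and X (adjusted exact permutation p = 0.156 each). Cluster 1, next to the centromere, had 0.832 ± 0.193, and its geometric mean was 0.956 of that of the rest (3 of 6 samples above, exact permutation p = 0.688). Its ratio was 0.814 and 0.906 in the 786 AA samples, 0.501 in the 786 control, 1.08 and 0.782 in the 769 AA samples and 0.903 in the 769 control.

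The difference was also seen against close neighbours. In the 500 kb on either side of each cluster, outside the clusters, the ratio averaged 0.716 for cluster 1, 0.792 for cluster 2, 0.859 for cluster 3, 0.968 for cluster 4 and 1.02 for cluster 5. Clusters 2, 3 and 4 lay above their flanks in 6 of 6 samples and clusters 1 and 5 in 5 of 6. After adjustment over the 5 comparisons no cluster passed 0.05 by the exact permutation test (adjusted p = 0.0521 for clusters 2, 3 and 4, 0.156 for cluster 1 and 0.0781 for cluster 5), and no p under 0.0312 was possible with 6 samples. Only 5 listed sites lay beyond cluster 1 and 21 beyond cluster 5, so those flanks are mostly 1-sided.

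For the clusters together, the fold over the rest was largest at sites with 3 to 7 CCGG in the 1 kb around them. Sites were put in 4 classes by the number of reference CCGG sites in the 1 kb around them. That number was counted between the outermost listed sites of the 1 kb, so it is a lower bound. Where few sites were listed, a site of a denser stretch can fall in a lower class. Whether this differed between the clusters and the rest was not tested. With 3 to 7 sites per 1 kb, the clusters had ratios of 1.00 and 1.14 in the 786 AA samples, 0.839 in the 786 control, 1.27 and 1.12 in the 769 AA samples and 1.06 in the 769 control. The rest of chromosome 19 had 0.458 to 0.629 in the same class. No sample of the clusters overlapped the rest, and the fold was 2.00 (log2 difference 1.00 ± 0.13, n = 6, 6 of 6 samples; exact permutation p = 0.0312, 0.0625 after adjustment over the 4 classes, which misses 0.05). Within this class the fold over the rest was 1.98 in cluster 1, 1.54 in cluster 2, 3.33 in cluster 3, 2.69 in cluster 4 and 1.73 in cluster 5. Cluster 1, not above the rest over all its sites, was thus high in this class (1.09 ± 0.310, n = 6). The class held 42.4% of the clusters' sites and 46.3% of those of the rest.

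At 8 to 15 sites per 1 kb the clusters averaged 1.73 ± 0.289, against 1.33 ± 0.178 in the rest (1.29-fold, 6 of 6 samples, exact permutation p = 0.0312, adjusted 0.0625). By cluster the fold in this class was 0.740 in cluster 1, 1.80 in cluster 2, 4.02 in cluster 3, 1.45 in cluster 4 and 1.22 in cluster 5, so that in clusters 2 and 3 it exceeded that at 3 to 7 sites. Cluster 3 had 14 sites there. Isolated sites, with 1 or 2 per 1 kb, had low ratios in both, 0.308 ± 0.109 in the clusters and 0.331 ± 0.0871 in the rest (2 of 6 samples above). At 16 or more per 1 kb the clusters averaged 2.09 ± 1.05 and the rest 2.56 ± 0.576, and 1 of 6 samples was above the rest. This densest class held 1.43% of the clusters' sites and 5.98% of the rest's. The 33 densest sites of cluster 1, in 7 runs, gave 1.84 HpaII tags over all 6 libraries together and 503.71 MspI tags. The 47 of cluster 5 gave 3007.86 HpaII and 1613.71 MspI tags. Fractions arise because a tag with several alignments is split between sites.

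**Figure D2:**
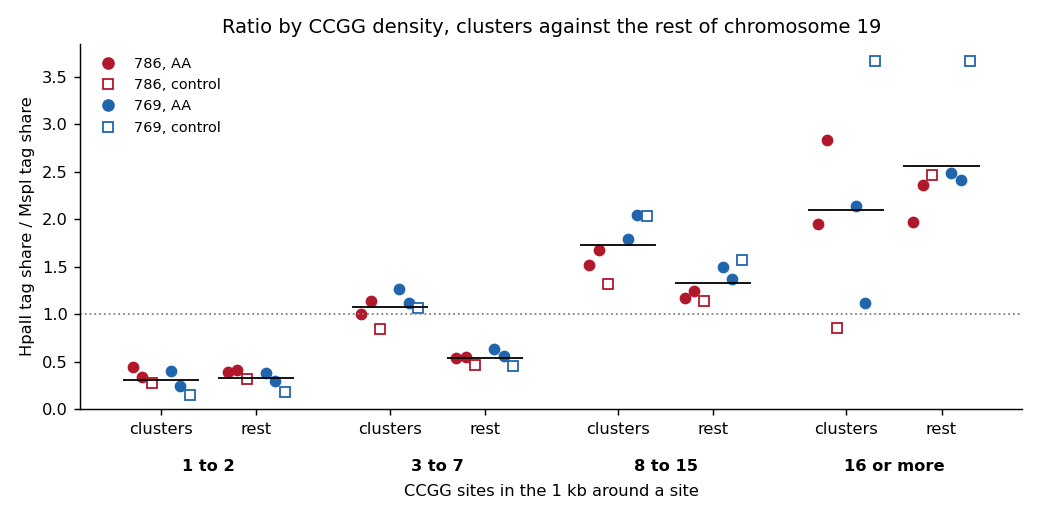
HpaII/MspI ratio (y axis, no unit) by the number of CCGG sites in the 1 kb around a site (bold numbers under the x axis), clusters left of the rest of chromosome 19 in each class, 1 point per DNA sample and a line at the mean of 6. At 3 to 7 sites per 1 kb the clusters span 0.839 to 1.27 and the rest 0.458 to 0.629, with no overlap. The numbers of CCGG sites are lower bounds.

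Sites of 1 class can still sit in different surroundings. Of the clusters' sites with 3 to 7 per 1 kb, 10.4% lay in 10 kb with 40 or more CCGG sites, against 28.8% in the rest of the chromosome. The number per 10 kb was also counted between the outermost listed sites and is a lower bound. With both brought to 1 mix of 4 classes of CCGG per 10 kb, the ratio was 1.09 ± 0.156 in the clusters and 0.617 ± 0.0800 in the rest, a 1.77-fold difference in 6 of 6 samples (exact permutation p = 0.0312). The same standardisation on other chromosomes gave 0.674 ± 0.134, and the clusters were 1.64-fold above it in 6 of 6 samples. At 8 to 15 sites per 1 kb it left 1.09-fold over the rest (4 of 6 samples, exact permutation p = 0.125). The 3 to 7 class was also above the rest when sites with a tag were counted (log2 difference 0.61) and with whole-count sites alone (0.93).

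Windows of 10 kb gave a finer view. Of the 962 windows that hold listed sites, 204 reached 10 MspI tags in every MspI library: 33 in cluster 1, 33 in cluster 2, 4 in cluster 3, 39 in cluster 4 and 95 in cluster 5. A window was called open where its mean ratio reached 0.5 in both lines and closed where it was under 0.1 in both. The mean is arithmetic, so a single high sample can make a line open. Window 21650001 to 21660000, for example, was open with 769 ratios of 0.166 and 0.0543 in AA and 5.00 in the control. By that rule 111 of 204 cluster windows (54.4%, Wilson 95% interval 47.6% to 61.1%) were open, against 915 of 2068 (44.2%) in the rest of chromosome 19 and 42.0% of such windows genome-wide. Closed windows numbered 35 (17.2%) in the clusters and 502 (24.3%) in the rest, with 22.5% genome-wide. The intervals cover counting error only. Cluster windows held fewer listed sites than those of the rest. The medians were 10 against 12 where the densest site had 3 to 7 CCGG per 1 kb, and 16 against 22 at 8 to 15. Whether this bears on the shares was not tested. In single samples the share of cluster windows with a ratio of at least 0.5 was 58.8% and 64.7% in 786 AA, 31.9% in the 786 control, 67.6% and 51.0% in 769 AA and 45.6% in the 769 control. That share exceeded that of the rest in 5 of 6 samples, by 7.31 ± 4.89 points (exact permutation p = 0.0625), with the 786 control as the exception.

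The share of open windows varied by cluster. Cluster 4 had the highest share of open windows, 26 of 39, followed by cluster 2 with 18 of 33, cluster 1 with 17 of 33, cluster 5 with 48 of 95 and cluster 3 with 2 of 4. Closed windows made up 9 of 33 in cluster 2, 19 of 95 in cluster 5, 5 of 39 in cluster 4, 2 of 33 in cluster 1 and none of the 4 in cluster 3. HpaII gave no tag in all 6 libraries in 9 of the 204 (4.41%), against 3.53% in the rest of chromosome 19 and 5.95% on other chromosomes. Among the windows whose densest site had 3 to 7 CCGG per 1 kb, 30 of 75 were open in the clusters and 223 of 872 in the rest. With 8 to 15 at the densest site, 72 of 113 were open in the clusters and 452 of 862 in the rest, and with 16 or more, 7 of 13 in the clusters and 233 of 285 in the rest. Across the 204 windows Spearman's rho between 2 samples, which share their sites and base composition, was 0.33 to 0.73. The lowest values involved the 786 control.

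**Figure D3:**
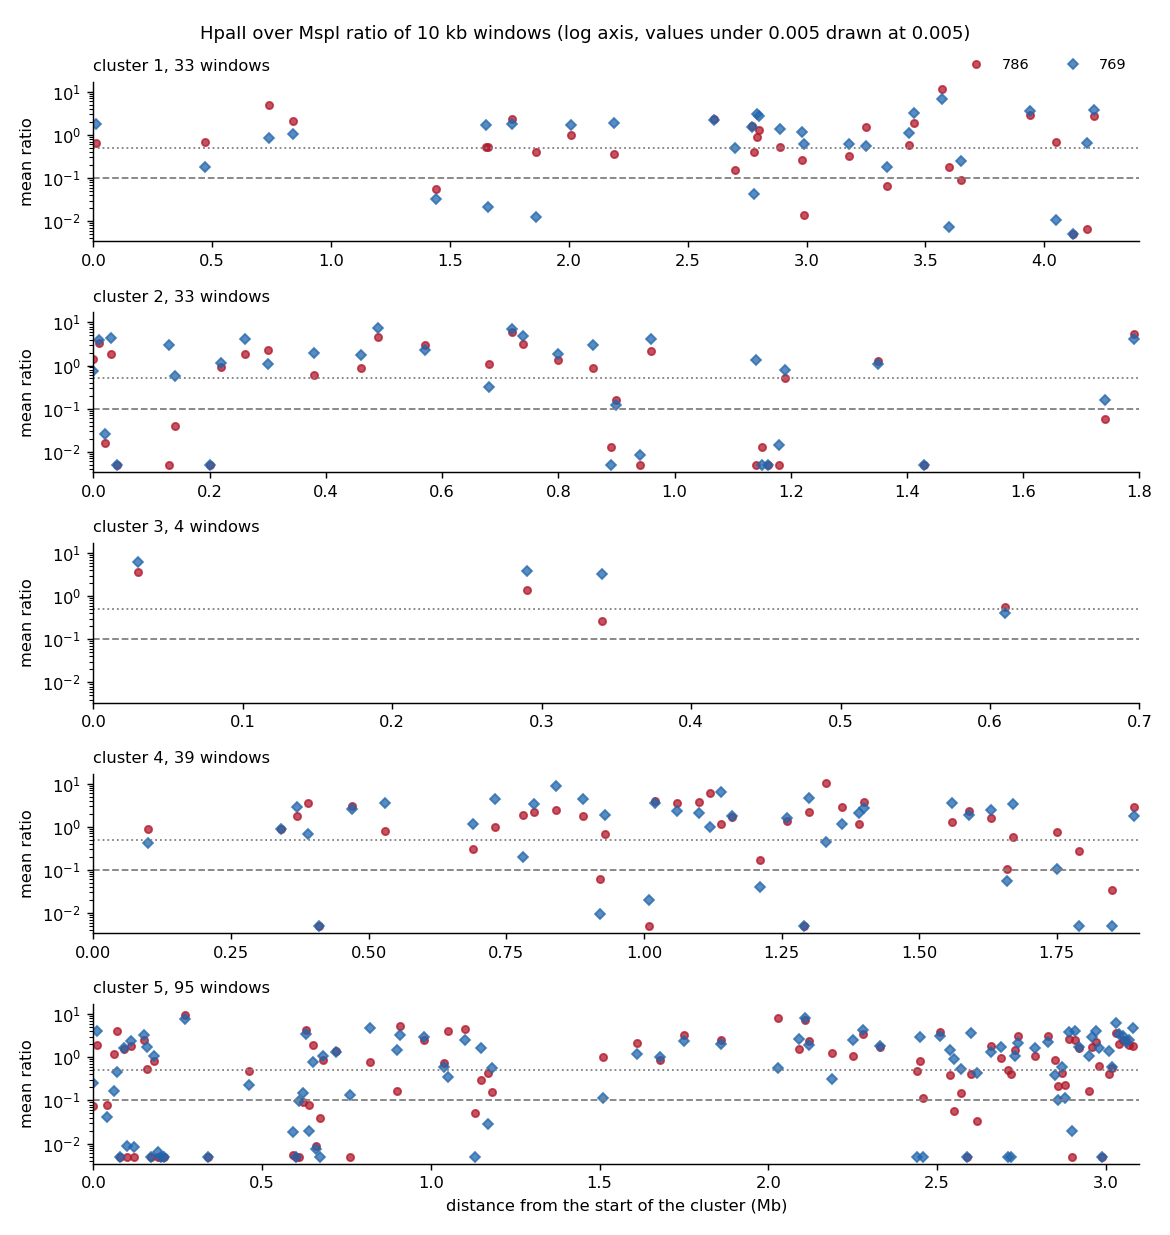
Mean HpaII/MspI ratio (y axis, log scale) of the 204 windows of 10 kb by distance from the start of their cluster in Mb (x axis), circles for 786 and diamonds for 769, each the mean of 3 DNA samples; values under 0.005 are drawn at 0.005, the dotted line marks 0.5 and the dashed line 0.1. Of the windows, 111 are open and 35 closed in both lines, and cluster 1 holds 2 of the 35.

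CCGG islands, runs of sites with at least 8 CCGG in the 1 kb around each and at most 500 bases between neighbours, were open less often than on other chromosomes. With at least 10 MspI tags in each MspI library there were 72 of them: 7 in cluster 1, 11 in cluster 2, none in cluster 3, 8 in cluster 4 and 46 in cluster 5. In both lines 41 (56.9%) were open, against 555 of 944 (58.8%) in the rest of chromosome 19 and 70.3% genome-wide. Closed islands numbered 17 (23.6%), against 243 (25.7%) in the rest and 12.7% genome-wide. None was open in 786 and closed in 769 (2.5% genome-wide), and 2 were open in 769 and closed in 786 (1.49% genome-wide). Per sample the open share was 11.6 ± 3.78 points under that of other chromosomes (59.0% against 70.7%, lower in 6 of 6 samples, exact permutation p = 0.0312). Against the rest of chromosome 19 the difference was 1.22 ± 3.06 points, with 3 of 6 samples above. By cluster, 9 of 11 were open in cluster 2, 27 of 46 in cluster 5, 4 of 8 in cluster 4 and 1 of 7 in cluster 1.

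Genes could be named for some of these places. Of 1917 RefSeq promoters of chromosome 19, each 300 bases around a start, 466 hold at least 4 CCGG, and 407 of those matched the spacing of listed sites at exactly 1 place, in RefSeq's order without exception. The same promoters tried on chromosomes 16, 17, 20 and 22 matched 2, 2, 3 and 0 times. In the clusters 59 promoters of 53 genes were placed, 28 of them ZNF genes; 1 lay in cluster 1, 19 in cluster 2, 7 in cluster 4 and 32 in cluster 5. A promoter needs many CCGG to be placed, so these are CCGG-rich starts. In RefSeq, 90.0% of 261 ZNF promoters of chromosome 19 hold at least 1 CCGG (median 2), against 77.5% of the 1656 other promoters of the chromosome (median 2) and 63.1% of all 35116 (median 1).

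Most placed starts were cut by HpaII. Of the 38 promoters with at least 10 MspI tags in each library within 500 bases of the start, 33 (86.8%, Wilson 95% interval 72.7% to 94.2%) were open in both lines, against 263 of 282 (93.3%) in the rest of chromosome 19 and 92.5% of placed promoters of the whole chromosome. Some promoters share sites: joined where these regions overlap, they made 27 start regions, of which 24 were open. Of 21 promoters of ZNF genes, 18 were open and none closed. The median of the mean ratios was 3.53 in the clusters and 3.33 in the rest. ZNF787 had ratios of 5.31 and 5.32 in 786 AA, 5.25 in the 786 control, 3.53 and 2.48 in 769 AA and 3.20 in the 769 control, with no overlap of the lines. In its island, 56631489 to 56633363, the lines overlapped. There 786 had 7.67 and 5.17 in AA and 3.31 in the control, and 769 had 3.80 and 4.04 in AA and 4.10 in the control. They also overlapped at the LOC124904772 start, which lies within 500 bases of that of ZNF787. ZNF160 had 3.41 and 2.11 in 786 AA, 5.00 in the 786 control, 2.85 and 6.15 in 769 AA and 7.48 in the 769 control. ZNF382 and ZNF529, KRAB zinc finger genes that start back to back in cluster 2, shared a region with 4.48 and 3.67 in 786 AA, 5.23 in the 786 control, 1.82 and 14.3 in 769 AA and 6.62 in the 769 control.

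Genes of other families in the clusters had open starts too. CAPNS1, the small subunit of calpain, averaged a ratio of 3.68 ± 2.98 over the 6 samples, UBE2M, a NEDD8-conjugating enzyme, 3.48 ± 2.60, and CHMP2A, a subunit of the membrane-remodelling ESCRT-III complex, 3.59 ± 3.93. The SDs were large beside these means, so no order among them is given. Among these 38 LOC107985342 alone was closed in both lines, with 0 HpaII tags against 274 MspI tags over the 6 libraries; 3 HpaII tags there would have made a ratio of 0.016. USP29, a deubiquitinase gene beside PEG3, had 5 HpaII and 342 MspI tags, and the non-coding LOC124904707 of cluster 2 had 7 and 388, but neither had 10 MspI tags in every library. The 4 promoters between the levels belonged to ZNF135, which has 2 placed promoters, and to ZNF582 with its divergent RNA ZNF582-DT.

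**Figure D4:**
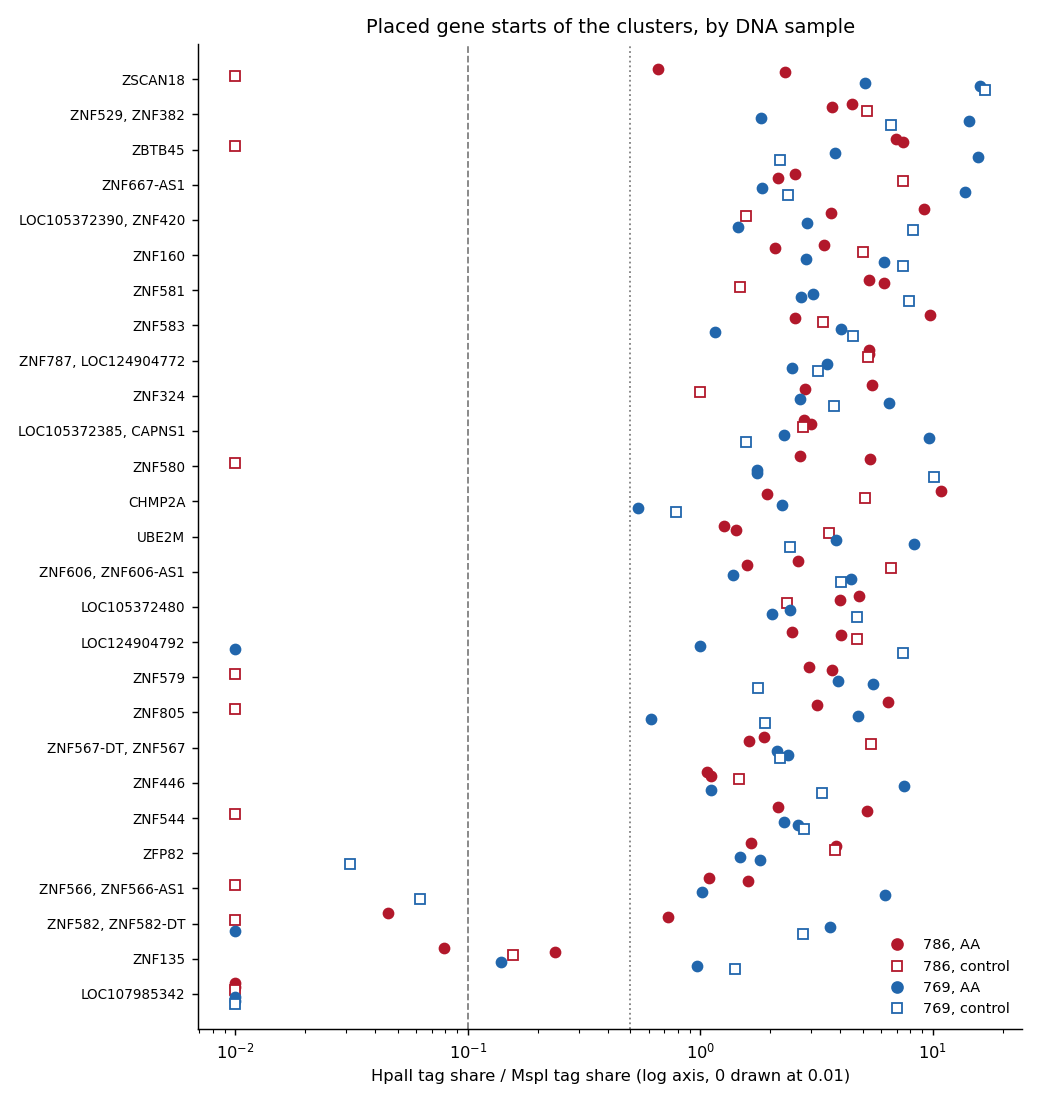
HpaII/MspI ratio (x axis, log scale, 0 drawn at 0.01) of the 27 start regions of placed promoters (rows, by gene, highest mean at the top) in each DNA sample, filled circles for AA and open squares for control, 786 in red and 769 in blue; the dotted line marks 0.5 and the dashed line 0.1. Most regions lie between 1 and 10, and LOC107985342 is at 0 in every sample.

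The extremes of the islands were far apart. In cluster 5 the highest by mean log2 ratio, 58111262 to 58111706, averaged 7.64 ± 7.31, followed by the ZNF787 island at 56631489 to 56633363 with 4.68 ± 1.59 and 58891900 to 58892542 with 5.17 ± 4.17 (SD, n = 6 each). The lowest, 58596014 to 58596846, gave 0 HpaII tags against 1049 MspI tags, so that 3 tags would have made a ratio of 0.00418. In 56671114 to 56671580 there were 0 against 799 tags, and in 56598637 to 56600204, 3 against 1198. Cluster 2 ranged from the ZNF382 and ZNF529 island at 37095815 to 37096476 (5.67 ± 3.23) to 36642618 to 36643331, with 0 HpaII and 361 MspI tags. In cluster 4 the ZNF160 island at 53606082 to 53606982 averaged 3.77 ± 1.78, and the island of LOC107985342, 54151183 to 54151992, had 0 against 378 tags. In cluster 1 only 23456632 to 23457054 was open, at 2.78 ± 1.11. Another, 24119879 to 24120552, had 13 HpaII tags against 327 MspI tags.

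Whether the lines differ within the clusters was asked next. Relative to the rest of chromosome 19, the log2 ratio of all clusters was 0.35 ± 0.14 in 786 and 0.42 ± 0.06 in 769 (SD, n = 3 each). The difference was -0.08 (exact permutation test, two-sided p = 0.6), and a comparison of 3 with 3 cannot give a p under 0.1. Cluster 3 differed most in its values, with log2 ratios of 0.24 and 0.30 in the 786 AA samples, 0.46 in the 786 control, 0.83 and 1.58 in the 769 AA samples and 1.12 in the 769 control. Its lines did not overlap (difference -0.85, exact p = 0.1, 0.3 after adjustment over 6 sets). In cluster 2 the lines met at a log2 ratio of 0.52, the highest of 786 and the lowest of 769, and the difference was -0.29 (exact p = 0.1, adjusted 0.3). By windows, 3 of 204 (1.47%) were open in 786 and closed in 769, against 3.24% in the rest of chromosome 19 and 7.45% genome-wide. The reverse held for 6 (2.94%), open in 769 and closed in 786, against 1.40% in the rest and 1.14% genome-wide. The Wilson 95% intervals, 0.501% to 4.23% and 1.35% to 6.27%, cover the values of the rest of chromosome 19.

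Fitted over the genome, few cluster windows differed between the lines. The model, edgeR's quasi-likelihood test of HpaII relative to MspI with terms for line and treatment, tested 28762 windows, of which 177 lay in the clusters, with Benjamini-Hochberg adjustment over all 28762. In the clusters 2 windows passed an adjusted p of 0.05, both lower in 786, where 2.03% of all tested windows passed and 0.528% in that direction. To be tested, a window needed 10 HpaII tags over all HpaII libraries together. Both windows met this through 769 alone, with 2 and 0 HpaII tags in 786. With 10 HpaII tags required in every library, 10 cluster windows were tested and edgeR called 0, against 19 of all 3818. At an unadjusted p under 0.05 there were 15 of the 177, against 15.2% of all windows, and DESeq2 called 11, against 12.2% of all. In the rest of chromosome 19 edgeR called 27 of 1710 windows, 18 of them lower in 786. The median log2 fold change was -0.27 over the 177, -0.24 over the rest of chromosome 19 and 0.17 over all windows. For the 58 islands tested, edgeR called 0, against 1.63% of all 12446 islands, with 4 at an unadjusted p under 0.05 (11.3% of all) and 1 called by DESeq2 (5.78% of all).

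The first of the 2 windows, 24180001 to 24190000 in cluster 1, had 0 and 2 HpaII tags in 786 AA and 0 in the 786 control, with 290, 164 and 251 MspI tags in that order. In 769 HpaII gave 290 and 27 tags with AA and 12 in the control, with 193, 54 and 436 MspI tags. Its ratios were 0.0202 at most in 786 and 1.21, 0.652 and 0.0623 in 769, so the lines did not overlap and the 769 control was the lowest of its line. Pooled by line, the 786 ratio was 0.00615 of that in 769, with an exact Poisson 95% interval of 0.00075 to 0.0222 for the 2 tags (edgeR log2 fold change -7.53 ± 1.80 SE, adjusted p = 0.0232). The interval covers the counting error of these 2 tags only and leaves out the spread between samples. It holds the 769 value fixed, where 290 of 329 HpaII tags came from the first AA sample. Thinned to equal depth the window did not pass (edgeR log2 fold change -8.75, adjusted p = 0.175). The call was lost without the first 786 AA sample (adjusted p = 0.407), the first 769 AA sample (0.124) or the second 769 AA sample (0.101) in the edgeR fit.

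The second, 56610001 to 56620000 in cluster 5, holds 49 listed sites and gave 0 HpaII tags in all 786 samples, with 251 and 301 MspI tags in AA and 465 in the control. In 769 it had 48 and 2 HpaII tags in AA and 60 in the control, at ratios of 0.0962, 0.0253 and 0.172. It was thus low in both lines. By geometric means 786 was at least 2.20-fold lower, with 3 tags per 786 library as the floor (edgeR adjusted p = 0.0462). Leaving out any 1 of the 6 DNA samples ended the call (edgeR adjusted p = 0.0718 to 0.278). Next by p came 36730001 to 36740000 in cluster 2, which did not pass in edgeR (adjusted p = 0.0566) and passed in DESeq2 (adjusted p = 0.003). There 786 had 0 HpaII tags in every sample, against 116 and 28 in 769 AA and 223 in the 769 control, and by geometric means 786 was at least 10.3-fold lower. This window too met the HpaII filter through 769 alone. The folds of 2.20 and 10.3 allow for counting error in 786 only and leave out the spread between samples. Window 36730001 to 36740000 contains the island 36736243 to 36736795, which DESeq2 called (adjusted p = 0.0241) and edgeR did not (adjusted p = 0.149).

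**Figure D5:**
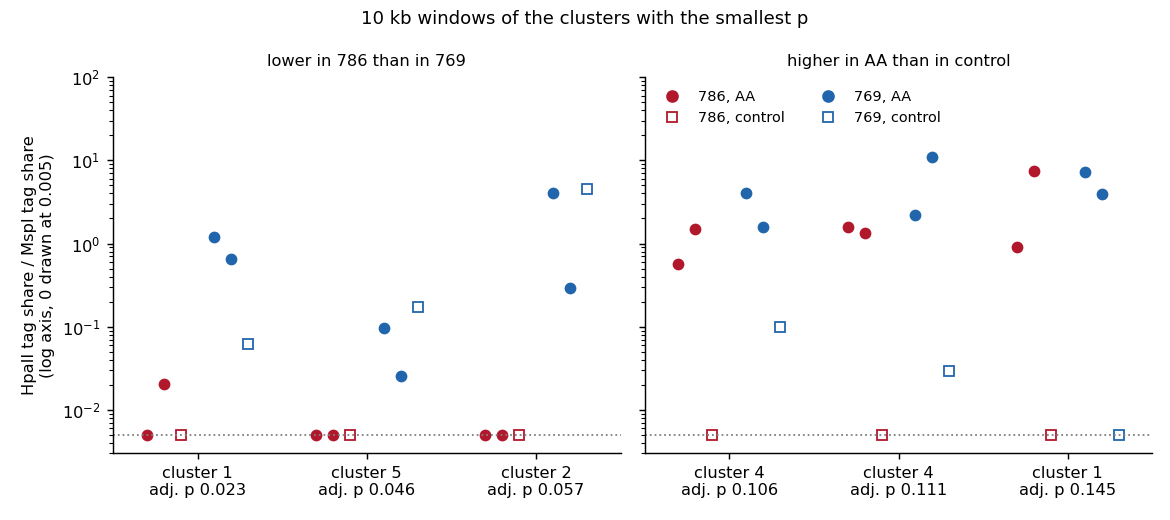
HpaII/MspI ratio (y axis, log scale, 0 drawn at 0.005) of the 3 cluster windows with the smallest p lower in 786 than in 769 (left) and higher in AA than in control (right), 1 point per DNA sample, with edgeR's adjusted p under each. The 786 samples are at 0 in 8 of 9 values on the left, and the controls are at or under 0.0995 on the right.

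Starts that stood out between the lines were described by their values, since none passed the test. ZSCAN18 had ratios of 0.659 and 2.31 in 786 AA, 0 in the 786 control, 5.14 and 16.02 in 769 AA and 16.8 in the 769 control, with no overlap of the lines (island 58609340 to 58609896, edgeR log2 fold change -3.27 ± 1.21 SE, adjusted p = 0.213). Its MspI tags were 69, 46 and 26 in the 786 samples and 37, 25 and 24 in the 769 samples. A second placed ZSCAN18 promoter, 58629724 to 58630023, did not have 10 MspI tags in every library. It had 35 HpaII and 188 MspI tags over the libraries. Its mean ratio was 0 over the 786 samples with MspI tags there and 0.438 in 769. The island of U2AF2, which encodes a splicing factor, had 0.564 and 0.856 in 786 AA, 0.994 in the 786 control, 1.66 and 7.95 in 769 AA and 3.13 in the 769 control (edgeR adjusted p = 0.319). The sites within 500 bases of the placed U2AF2 start had ratios of 10.9 and 4.69 in 786 AA, 0 in the 786 control, 1.73 and 4.32 in 769 AA and 6.10 in the 769 control, so there the lines overlapped, with 2 MspI tags behind the first of these values. ZNF135 had 0.0791 and 0.237 in 786 AA, 0.157 in the 786 control, 0.139 and 0.964 in 769 AA and 1.41 in the 769 control. ZNF582 had 0.0455 and 0.725 in 786 AA, 0 in the 786 control, 3.63 and 0 in 769 AA and 2.76 in the 769 control. The lines overlapped in both. In the other direction, window 53630001 to 53640000 of cluster 4 had 3.42 and 5.30 in 786 AA, 22.3 in the 786 control, 1.21 and 0.130 in 769 AA and 0.0107 in the 769 control (edgeR adjusted p = 0.142, DESeq2 0.00731), and the 786 control value rests on 9 HpaII tags.

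The comparison the study was built for is AA against control. Over all clusters, relative to the rest of chromosome 19, the log2 ratio was 0.43 as a mean of the 2 AA samples of 786, against 0.19 in the 786 control, and 0.45 in AA of 769, against 0.37 in the 769 control. The mean difference of AA minus control was 0.16 (exact permutation of treatment labels within lines, 9 arrangements, two-sided p = 0.111, the smallest possible, adjusted 0.444). Cluster 1 had a difference of 0.36 (exact p = 0.222) and cluster 5 of 0.21 (exact p = 0.222). Cluster 2 had -0.03, cluster 3 -0.06 and cluster 4 0.04.

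No window or island of the clusters passed the test of AA. Among the 177 windows edgeR called 0, against 0.581% of all windows, and DESeq2 called 8, against 2.99% of all. At an unadjusted p under 0.05 there were 22 of the 177, against 12.2% of all windows. The median log2 fold change was 1.18 over the cluster windows and 1.16 over all windows. Of the 58 islands edgeR called 0 for AA in both lines (0.129% of all islands passed), 0 in 769 (0.659%) and 0 in 786 (0.241%). The counts at an unadjusted p under 0.05 were 7, 7 and 8 in that order, against 10.7%, 15.1% and 13.9% of all islands, and DESeq2 called 0, 4 and 0, against 1.87%, 9.5% and 0.554%. The effect of AA in 786 minus that in 769 passed in 0 cluster windows in edgeR (0.0626% of all), with 15 of 177 at an unadjusted p under 0.05 (11.2% of all). It passed in 0 cluster islands (0.0964% of all), with 6 of 58 at an unadjusted p under 0.05 (14.2% of all).

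The windows with the smallest p shared low control values. Window 53230001 to 53240000 of cluster 4 had ratios of 0.564 and 1.5 in 786 AA, against 0 in the 786 control, and 4.00 and 1.59 in 769 AA, against 0.0995 in the 769 control (edgeR adjusted p = 0.106). Window 53030001 to 53040000 of cluster 4 had 1.57 and 1.35 in 786 AA, against 0 in its control, and 2.23 and 10.9 in 769 AA, against 0.0297 in its control (edgeR adjusted p = 0.111). Window 24210001 to 24220000 of cluster 1 had 0.919 and 7.505 in 786 AA and 7.22 and 3.95 in 769 AA, against 0 in both controls (edgeR adjusted p = 0.145). In each, all 4 AA samples were above the control of their line, and DESeq2 called all of them (adjusted p = 0.0111, 0.00694 and 0.034 in that order). The 786 control had 0 HpaII tags beside 193, 76 and 25 MspI tags in that order. Its HpaII library held 189704 tags in all, so a 0 there says little about a low ratio. The 769 control had 8, 3 and 0 HpaII tags beside 182, 229 and 100 MspI tags. In the other direction, 23570001 to 23580000 had 1.12 and 1.10 in 786 AA, against 32.5 in the 786 control, and 0.744 and 2.76 in 769 AA, against 16.9 in the 769 control (edgeR adjusted p = 0.256, DESeq2 0.0153).

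Starts and islands had higher and lower values with AA, and none passed the edgeR test. The ZFP82 start, a KRAB zinc finger gene of cluster 2, had ratios of 1.48 and 1.81 in 769 AA, against 0.031 in the 769 control from 2 HpaII and 146 MspI tags, and 1.65 and 3.85 in 786 AA, against 3.78 in the 786 control. Its island, 36908979 to 36909665, had an edgeR adjusted p of 0.125 in 769, and DESeq2 gave 0.00596. The island of cluster 1 at 22193410 to 22193760 had 0.290 and 0.588 in 786 AA, against 0 in the 786 control. In 769 it had 1.53 and 4.97 in AA, against 0 in the control with 125 MspI tags (edgeR adjusted p = 0.123, DESeq2 0.00344). With 3 tags as the floor of the control, AA in 769 was at least 50.7-fold higher by geometric means. That floor allows for counting error in the single control only and leaves out the spread between samples. ZNF580, in cluster 5, had 1.76 and 1.75 in 769 AA, against 10.1 in the 769 control, and 2.69 and 5.38 in 786 AA, against 0 in the 786 control. ZBTB45, a BTB-domain zinc finger gene at the end of cluster 5, had 3.78 and 15.7 in 769 AA, against 2.20 in the 769 control, and 6.95 and 7.46 in 786 AA, against 0 in the 786 control. The 786 control had 0 HpaII tags at both ZNF580 and ZBTB45, with 114 and 69 MspI tags. The low 769 control values at ZFP82 and at 22193410 to 22193760 come from the HpaII library that tagged fewer sites than those of 769 AA.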

How the data were processed

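Per the labels' protocols, DNA was cut with HpaII or MspI and sequenced as HELP-tagging libraries. The authors deposited an estimated count of tags per CCGG site, with fractions where a tag has several alignments; the build is hg19 per the submitters' processing notes, and no aligner is named in the labels or file headers. The regions, lists and tests were chosen with earlier results of these data known, and the promoter placement, CCGG context, open and closed levels and their alternatives after seeing the data.

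Ratios used tags on chromosomes 1 to 22 and X. Cluster values were compared over DNA samples by exact permutation tests. Rounded counts of 10 kb windows and islands with at least 10 MspI tags in each library and 10 HpaII tags in all were fitted with edgeR 4.0.16 (quasi-likelihood, TMM within each enzyme; DNA sample, enzyme, and enzyme by line and by AA), with Benjamini-Hochberg adjustment and a threshold of 0.05; AA within lines used a second fit. DESeq2 1.42.0 was an alternative. The SE printed with an edgeR log2 fold change is the size of that change divided by the square root of the test's F statistic. The residual degrees of freedom were 3 and 2. Scripts ran on Python 3.11.15 and R 4.3.3. The fit was also run on simulated counts with 200 features changed 8-fold between lines. Those features had at least the median HpaII count, so that run does not cover regions with few HpaII tags. Named regions are up to 5 per direction past the threshold without overlap between groups, else up to 3 by smallest p, and the 3 highest and 3 lowest islands per cluster; gene names and starts came from the placed promoters. P-values measure the spread between these samples only.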

Additional observations from a re-analysis of the deposited data

Results flagged for a closer look

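In some results both AA samples of 786 lay on one side of their control and both AA samples of 769 on the other. Each line has 1 control, and the 786 control is the library of 189704 HpaII tags. The differences of clusters and density classes were not tested. On the log2 scale over the rest of chromosome 19, AA minus control was 0.20 in 786 and -0.26 in 769 for cluster 2 (difference 0.4601). It was 0.26 and -0.18 in the same order of lines for cluster 4 (0.4362). At sites with 3 to 7 CCGG per 1 kb it was 0.11 and -0.21 (0.3219), and at 16 or more 1.66 and -0.66 (2.3249). The 786 control value at 16 or more rests on 7 HpaII tags, all in cluster 5.

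For single regions the HpaII/MspI ratio itself was compared. In window 53630001 to 53640000 AA minus control was -17.9 in 786 and 0.659 in 769 (difference -18.559). At the ZSCAN18 island, 58609340 to 58609896, it was 1.48 and -6.21 (7.6914), and at 36618959 to 36619418 it was 7.82 and -25.6 (33.3724). The ZNF580 island, 56151936 to 56152788, had 4.04 and -8.38 (12.4168), and 56075714 to 56076208 had -15.7 and 0.463 (-16.1528). The ZNF420 island, 37568860 to 37569549, had 4.84 and -6.10 (10.9416), and the ZNF787 island, 56631489 to 56633363, had 3.11 and -0.18 (3.2915). The difference itself did not pass in any of these 7 regions by edgeR's quasi-likelihood test with Benjamini-Hochberg adjustment over all windows or islands (adjusted p = 0.347 for the window and 0.132 to 0.677 for the 6 islands).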

How the results depend on the processing

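Clusters against the rest of chromosome 19 (log2 0.39) kept their direction in every alternative run, but not the threshold with sites counted (0.0666) or against the rest of chromosomes 1 to 22 and X (0.149); leaving out 1 sample gave 0.365 to 0.427 at an exact permutation p of 0.0625, the smallest 5 samples allow, and 0.961 to 1.03 for sites with 3 to 7 CCGG per 1 kb. The line difference over all clusters reversed with sites counted (0.0171) and ranged from -0.119 to 0.0059 without 1 sample. Of 171 values of single clusters 17 reversed. Against the rest, cluster 1 had 0.0461 at the same mix of CCGG density classes and -0.117 to 0.0381 without 1 sample. Between lines, cluster 1 had 0.0196 with sites counted and -0.240 to 0.123 without 1 sample, cluster 4 had 0.0342 with whole counts only, and cluster 5 had -0.179 against the rest of chromosomes 1 to 22 and X and -0.016 to 0.165 without 1 sample. For AA, cluster 2 had 0.131 with sites counted, 0.0162 against the rest of chromosomes 1 to 22 and X and -0.258 to 0.202 without 1 sample; cluster 3 had 0.376 with sites counted, 0.98 with whole counts only and -0.244 to 0.133 without 1 sample; cluster 4 had -0.136 with whole counts only and -0.179 to 0.257 without 1 sample. The reversals without 1 sample came without the 786 control (cluster 1 in both comparisons, clusters 3 and 4), the 769 control (cluster 5, cluster 2), the first 786 AA sample (cluster 2) and the first 769 AA sample (cluster 3). The same mix could not be given for clusters 2 to 4 alone.

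The 2 windows called between lines became 1 with TMM over all 12 libraries, 0 with 10 HpaII tags in every library, thinned libraries, no treatment term or 100 kb windows, 0 to 1 without 1 sample and 11 with DESeq2. Called windows for AA became 8 with DESeq2. Called islands between lines became 1 without the count filter, with DESeq2 or at 4 CCGG per 1 kb; for AA in 769 they became 4 with DESeq2 and 0 to 1 without 1 sample. Of 418 values of 31 named regions none reversed, 13 passed only in the alternative and 13 no longer passed. Windows open in both lines were 38.7% with levels of 1 and 0.05, and 46.6% to 56.4% without 1 sample. Same-numbered samples did not deviate together (r = -0.02 over 28762 windows and -0.03 over 12446 islands); with the replicate block the windows called between lines were 3, with 36730001 to 36740000 past the threshold (edgeR adjusted p = 0.0346), and the islands called for AA in 786 were 1. Where a call or sign changed, the cause was not tested. Depth limits the 786 control most.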
